A study of Homo sapiens with 9 samples.

Results

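The carbonic anhydrase genes described here are CA2, CA5B, CA8, CA9, CA11, CA12 and CA13, which are 7 of the 60683 genes counted in each library. They were taken by gene name and chosen by their measured levels, the per-library values in the 3 groups, so the differences between groups are given for them as a description, with no test. The libraries hold messenger RNA from cells labelled HCT 15, a human colorectal adenocarcinoma line of wild-type genotype per the labels, in 3 untreated libraries, 3 libraries of cells adapted to oxaliplatin and 3 of cells adapted to sorafenib. Oxaliplatin is a platinum drug that forms DNA adducts, and sorafenib is a multikinase inhibitor whose targets include RAF and VEGF receptors. Per the labels, the oxaliplatin cells received 0.5 µM for 7 days, then 1, 2 and 4 µM between day 10 and day 30, and stayed in 4 µM. The sorafenib cells were adapted in a similar way, at doses the labels do not give. All groups grew in the same serum-containing medium, and nothing states that the libraries of a group came from separate cultures, so the spread between them may be technical.

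Carbonic anhydrases are zinc enzymes that interconvert carbon dioxide and water with bicarbonate and a proton. Family members differ in where they act: in the cytosol, in mitochondria or on the outer face of the cell membrane, where they work beside bicarbonate transporters and proton exporters in setting the pH inside and around the cell. In colon and kidney epithelium they serve acid, bicarbonate and salt transport, and the membrane-bound forms CA9 and CA12 are known from tumours, where oxygen shortage can induce them. CA8 and CA11 encode related proteins that lack the catalytic activity.

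The promoters of CA12 and CA9 are shown because these relatives both encode membrane-bound enzymes with an extracellular catalytic domain, and the first was abundant in sorafenib cells while the second was nearly absent from all groups. Each line gives the 250 bases before the transcription start in RefSeq (GRCh38.p14), 5′ to 3′ on the gene's own strand. Capitals mark the matches to the hypoxia response core (ACGTG or GCGTG), to the AP-1 site (TGANTCA), to the GC box (GGGCGG) and to the TATA box (TATAAA), searched on both strands.
CA12 (chr15:63381847-63382096, minus strand): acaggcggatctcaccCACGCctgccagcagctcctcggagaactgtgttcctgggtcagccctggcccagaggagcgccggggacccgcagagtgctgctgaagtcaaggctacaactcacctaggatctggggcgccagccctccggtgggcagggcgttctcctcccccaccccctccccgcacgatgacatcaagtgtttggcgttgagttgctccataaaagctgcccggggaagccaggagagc
CA9 (chr9:35673678-35673927, plus strand): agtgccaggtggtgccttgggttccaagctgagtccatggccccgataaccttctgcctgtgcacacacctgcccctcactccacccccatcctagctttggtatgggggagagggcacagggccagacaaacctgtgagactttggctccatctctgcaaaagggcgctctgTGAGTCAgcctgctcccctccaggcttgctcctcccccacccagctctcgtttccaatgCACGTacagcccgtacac
In CA12 the single match was a GCGTG on the opposite strand at -234 to -230, counted from the start site, a sequence held by 32.2% of the 35116 promoter windows of this length. In CA9 an ACGTG lay on the opposite strand at -18 to -14, which 18.5% of windows hold, and an AP-1 match lay at -77 to -71, which 6.57% hold. The hypoxia response core in either spelling, ACGTG or GCGTG, was present in 43.2% of windows. The capitals do not overlap each other in either promoter. A CCAAT box, also searched, stood at -24 to -20 of CA9, and neither window held the oestrogen response half-site AGGTCA. RefSeq windows were matched for 3 of the 7 genes, and that of CA5B held 6 copies of GCGTG and no ACGTG. The GC content was 64.8% in the CA12 window and 60.4% in that of CA9, beside a median of 58.0% over all windows, and the windows held 13 and 5 CpG sites, beside a median of 11. Matches are a description of the letters and say nothing of a factor's binding in these cells.

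Total counts ran from 15797076 to 20936536 per library, and the low-count filter kept 16159 genes. Of 14 colorectal epithelium markers 13 had a median under 1 CPM (reads per 1000000 counted in the library, with the library totals scaled by TMM), and CDX1, CDX2, CDH1, KRT20, MUC2, PHGR1, CEACAM5 and HNF4A had 0 counts in every library. Of 12 renal epithelium markers 11 had a median of 1 CPM or more, led by PAX8 at 335 CPM, so the label HCT 15 is not borne out by these markers. CD68, at a median of 27.7 CPM, was the sole blood and immune marker of 8 with a median above 1 CPM.

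CA12 was the member that differed most between groups. It encodes a transmembrane carbonic anhydrase whose active site faces outward (ENSG00000074410, chr15:63321378-63381846, minus strand, 6 annotated transcripts). Its level was 8.85, 3.37 and 3.92 CPM in untreated libraries 1 to 3, from 151, 61 and 74 reads. It was 4.17, 4.33 and 3.40 CPM in the oxaliplatin libraries and 56.2, 64.1 and 56.6 CPM in the sorafenib libraries, from 1035, 1131 and 1057 reads.
All 3 sorafenib libraries stood far above the 6 others, and untreated 1 stood above the remaining untreated and oxaliplatin libraries. The group means were 58.9 ± 4.48 CPM in sorafenib, 5.38 ± 3.02 CPM in untreated and 3.97 ± 0.498 CPM in oxaliplatin cells (SD, n = 3 each). The fitted log2 fold change was 3.46 ± 0.33 (SE) for sorafenib against untreated, which is 11-fold, and -3.89 ± 0.34 for oxaliplatin against sorafenib.
Oxaliplatin and untreated overlapped, with a log2 fold change of -0.43 ± 0.32. That sign rested on untreated 1: without it the value was 0.12, and that of sorafenib against untreated was 4.01. In bulk RNA a change in the number of cells that express a gene and a change in RNA per cell cannot be told apart.

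A marker list moved against CA12 between sorafenib and the other groups. The summed level of 8 stromal and endothelial markers was 11.4, 48.8 and 47.4 CPM in untreated libraries 1 to 3, 16.6 to 24.7 CPM in oxaliplatin and 4.07 to 4.94 CPM in sorafenib, lowest where CA12 was highest. COL3A1, VWF, CDH5 and LUM of that list had 0 counts in every library, and 6 of the 8 markers had a median under 1 CPM. The sum thus rested mainly on COL1A1, with a median of 12.6 CPM, and PDGFRB, with 3.95 CPM. The part of this list in the CA12 result was not tested. The renal markers summed to 605 to 914 CPM in untreated, 913 to 957 CPM in oxaliplatin and 880 to 1090 CPM in sorafenib libraries.

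**Figure D1:**
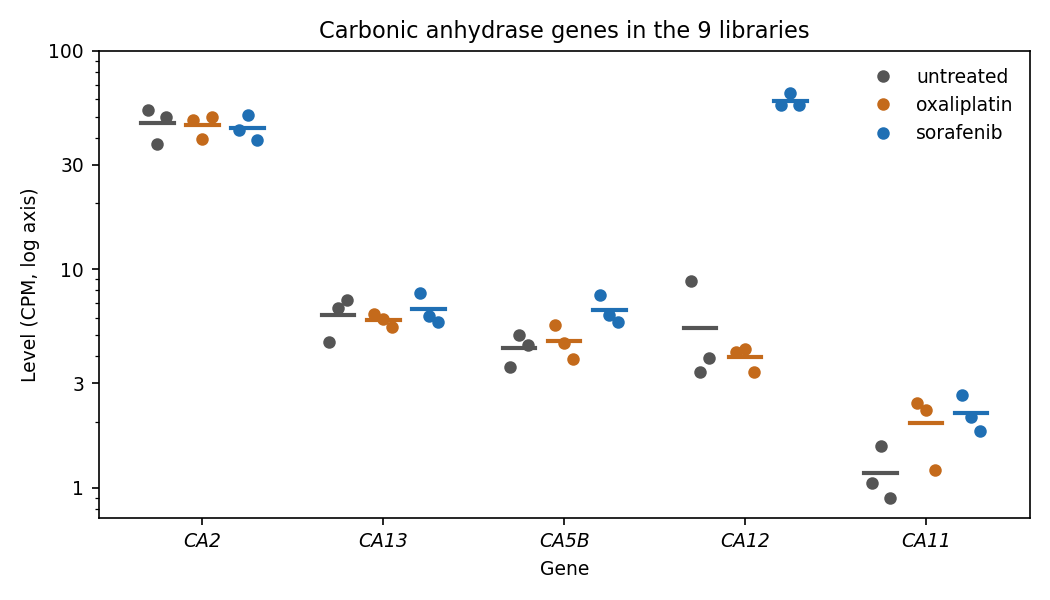
Levels of the 5 carbonic anhydrase genes that passed the filter on low counts, in CPM on a log axis. Points are single libraries (3 per group, coloured by group) and bars are group means. CA12 sits between 56.2 and 64.1 CPM in sorafenib and at or below 8.85 CPM elsewhere, while CA2 lies between 37.4 and 53.7 CPM in all libraries.

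CA9, the other membrane-bound member described (ENSG00000107159, chr9:35673918-35681159), was close to absent. It had 2 reads in oxaliplatin 1, 1 read in oxaliplatin 3 and 0 in the other 7 libraries. A count of 0 allows up to 3 counts, which is 0.137 to 0.182 CPM depending on the library, and this floor covers counting error only. All CA9 values lay under that floor, so no difference between groups was detectable at this depth. On the opposite strand ARHGEF39 shares 38.5% of the exonic bases of CA9, and with counting whose strand setting is not given, the few reads cannot be assigned with certainty.

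CA2 and CA13, the cytosolic members, did not separate the groups. CA2 encodes one of the fastest enzymes of the family (ENSG00000104267, chr8:85463968-85481493). It stood at 53.7, 37.4 and 49.5 CPM in untreated libraries 1 to 3, at 48.4, 39.3 and 49.7 CPM in oxaliplatin and at 43.6, 50.7 and 39.2 CPM in sorafenib. The 3 groups lay over each other, with a fitted log2 fold change of -0.03 ± 0.16 for oxaliplatin and -0.08 ± 0.16 for sorafenib against untreated.
CA13 lies in the same gene cluster (ENSG00000185015, chr8:85220587-85284073). It ran from 4.63 to 7.20 CPM in untreated, from 5.46 to 6.23 CPM in oxaliplatin and from 5.73 to 7.81 CPM in sorafenib libraries, again with no separation. Its log2 fold changes were -0.07 ± 0.21 and 0.09 ± 0.21 against untreated. An antisense transcript shares 3.46% of its exonic bases.

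CA5B encodes a mitochondrial enzyme that supplies bicarbonate to carboxylases (ENSG00000169239, chrX:15688830-15788411). Its level was 3.57, 5.02 and 4.50 CPM in untreated, 5.54, 4.60 and 3.89 CPM in oxaliplatin and 7.65, 6.18 and 5.73 CPM in sorafenib libraries 1 to 3. Each sorafenib library was above every untreated and every oxaliplatin one, the nearest pair being 5.73 and 5.54 CPM. The log2 fold change was 0.58 ± 0.21 for sorafenib and 0.10 ± 0.21 for oxaliplatin against untreated. The latter was -0.30 after correcting for GC content and length.
Its neighbour CA5BP1 is a transcribed pseudogene copy whose locus overlaps it, with 29 shared exonic bases, 0.34% of those of CA5B. Reads may also be shared through similar sequence, which was not examined. The antisense gene INE2 covers 22% of the exonic bases of CA5B. CA5BP1 stood at 5.45 ± 0.782, 5.01 ± 0.452 and 5.20 ± 0.778 CPM in untreated, oxaliplatin and sorafenib (SD, n = 3 each), without separation of the groups. Values of CA5B are therefore uncertain as to origin.

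CA11 and CA8 encode the catalytically inactive relatives. CA11 (ENSG00000063180, chr19:48637946-48646187) stood at 1.05, 1.55 and 0.901 CPM in untreated, 2.43, 2.28 and 1.21 CPM in oxaliplatin and 2.66, 2.10 and 1.82 CPM in sorafenib libraries 1 to 3. The sorafenib libraries were all above the untreated ones, whereas oxaliplatin 3 fell within the untreated range. Between 17 and 53 reads lay behind each value, and the log2 fold changes against untreated were 0.91 ± 0.34 in sorafenib and 0.76 ± 0.34 in oxaliplatin. SEC1P on the opposite strand shares 3.57% of its exonic bases.
CA8 (ENSG00000178538, chr8:60185412-60281400) had 0 reads in all 9 libraries, so its level was at most at the floor given for CA9.

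**Figure D2:**
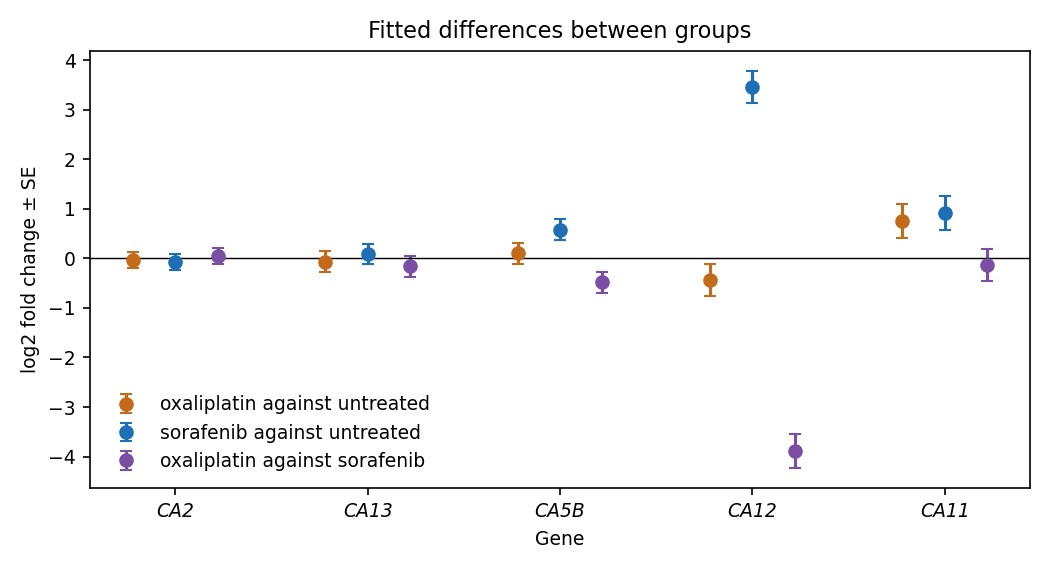
Fitted log2 fold changes of the 5 genes in the 3 comparisons, with standard errors as bars. CA12 lies at 3.46 for sorafenib against untreated and at -3.89 for oxaliplatin against sorafenib, and the other points lie between -0.48 and 0.91.

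Of the 7 members 5 passed the filter. Genes were called in the fit over all genes (edgeR's quasi-likelihood test, adjusted p under 0.05). No call is given for the members, which were chosen by these same values. The share of all tested genes called in sorafenib against untreated was 4.8%, of which 2.82% were higher and 1.97% lower. In oxaliplatin against sorafenib it was 10.3% (5.19% higher, 5.07% lower), and in oxaliplatin against untreated 31.7% (16.2% higher, 15.5% lower). Groups did not overlap for 3 of 5 members in sorafenib against untreated (CA5B, CA11 and CA12, all above), where 29.8% of all tested genes did not overlap, 15.5% above and 14.3% below. They did not overlap for 2 of 5 in oxaliplatin against sorafenib (CA5B and CA12, both below), beside 34.9% of all genes, 17.3% above and 17.6% below. In oxaliplatin against untreated this held for 0 of 5 members, beside 48.1% of all genes, 24.9% above and 23.2% below. Because these same values were in view when the members were picked, nothing is read from those counts. The median log2 fold change of the 5 members was 0.58 in sorafenib and -0.03 in oxaliplatin against untreated, beside 0.00 and 0.02 over all tested genes. The sorafenib median is the value of CA5B, with CA2 and CA13 at -0.08 and 0.09 and CA11 and CA12 at 0.91 and 3.46. Nothing is read from these medians either, for the same reason. The comparisons share libraries, so their values stand side by side and are not independent.

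Per kilobase of exon (RPKM, with exon lengths from GENCODE release 29), CA2 was the most abundant member in every library. In untreated cells its level was 22.1 ± 3.97 RPKM, and CA13, CA12, CA11 and CA5B followed at 1.11 ± 0.244, 0.735 ± 0.413, 0.562 ± 0.162 and 0.513 ± 0.0862 RPKM (SD, n = 3 each). The ranges of neighbours in that order overlapped after CA2. In oxaliplatin cells CA13 and CA11 followed CA2 at 1.06 and 0.950 RPKM, and CA5B and CA12 came last at 0.549 and 0.542 RPKM, with overlapping ranges.
In sorafenib cells CA12 moved to second place at 8.06 ± 0.613 RPKM (SD, n = 3), between CA2 at 21.0 ± 2.73 RPKM and CA13 at 1.19 ± 0.201 RPKM, and did not overlap either. It made up 24.1%, 24.7% and 26.9% of the summed RPKM of the members in sorafenib libraries 1 to 3. In the 6 other libraries its share was 1.79% to 4.28%, the highest being untreated 1. The sum itself was 28.8 to 35.5 RPKM in sorafenib, 20.6 to 28.3 RPKM in untreated and 21.8 to 26.4 RPKM in oxaliplatin libraries. CA2 held 84.9% to 90.2% of the sum outside sorafenib and 64.1% to 67.3% within it. This ranking depends on the lengths, which merge the exons of all annotated transcripts, 2123 bases for CA2 and 7313 for CA12. By CPM, CA12 at 56.2 to 64.1 stood above CA2 at 39.2 to 50.7 in the sorafenib libraries.

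**Figure D3:**
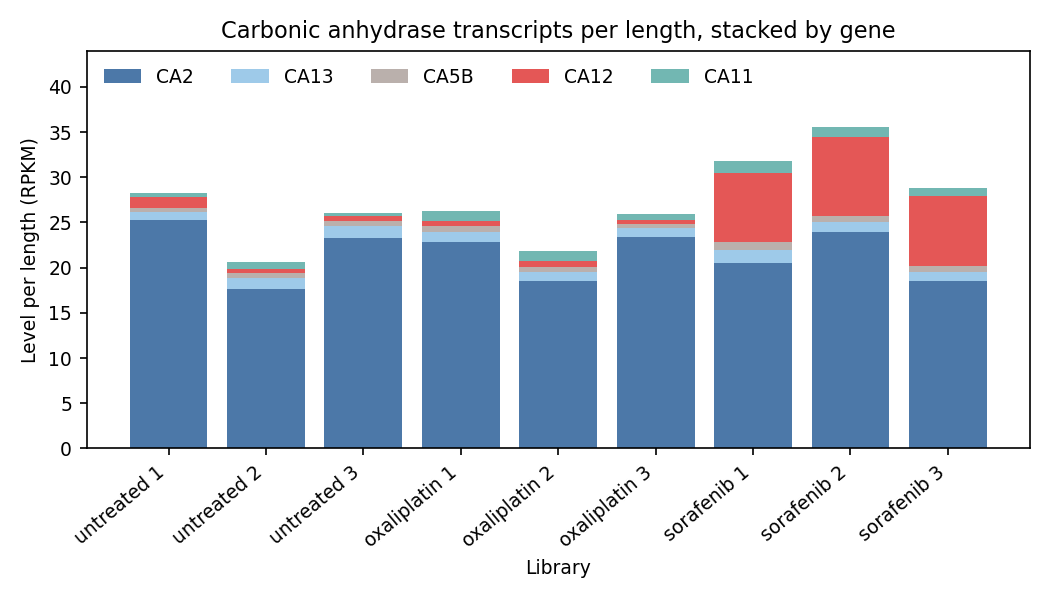
Levels per kilobase of exon (RPKM) of the 5 detected members, stacked for each of the 9 libraries. The CA12 segment makes up 24.1% to 26.9% of the bar in the sorafenib libraries and at most 4.28% in the others, while CA2 forms the largest segment in each.

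Of the 10 other rows of the family, CA5A and CA7 had 0 reads in all libraries, and CA1, CA4, CA10 and the pseudogene CA15P1 had at most 3 reads in any group. CA6, a secreted form, ran from 0 to 0.641 CPM. CA3, CA14 and CA5BP1 passed the filter, and 0 were called in any of the 3 comparisons by edgeR or DESeq2. At an unadjusted p under 0.05 there was 1, CA14 in oxaliplatin against sorafenib. CA14, which like CA12 encodes a transmembrane enzyme, had 0.922, 1.13 and 0.963 CPM in sorafenib libraries 1 to 3. All lay above its untreated values of 0.820, 0.276 and 0.477 CPM. The log2 fold change was 0.94 ± 0.46 and did not pass the test (edgeR, adjusted p = 0.233; from 0.108 to 0.534 over 16 alternatives). CA3 was at -0.06 ± 0.62 in the same comparison (adjusted p = 0.968).

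Of 8 protein-coding genes within 250 kb of CA12 on chromosome 15, 7 were tested and 1 was called in each drug group against untreated, beside 4.8% of all genes in sorafenib and 31.7% in oxaliplatin. The nearest, APH1B, a gamma-secretase subunit gene 12252 bases away (chr15:63276018-63309126), was low, at a mean of 0.659 CPM in sorafenib and 0.685 CPM in untreated. Its log2 fold change was -0.06 ± 0.46 for sorafenib against untreated (edgeR, adjusted p = 0.958), with a wide error at this level. HERC1, a ubiquitin ligase gene 226772 bases away (chr15:63608618-63833948), was the single neighbour called, in sorafenib at 0.63 ± 0.14 (adjusted p = 0.0379) and in oxaliplatin at 0.90 ± 0.14 (adjusted p = 0.00273). The sorafenib call of HERC1 ended without untreated 2 or 3, oxaliplatin 1 or 2, or sorafenib 2 or 3 (adjusted p up to 0.154). It also ended with only the 2 groups fitted (0.081), with the replicate block (0.106) and with the GC and length correction (0.0679). That correction lowered its log2 fold change to 0.29 in sorafenib and to 0.35 in oxaliplatin. LACTB, RPS27L, RAB8B, TPM1 and USP3 were not called in any of the 3 comparisons.

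The genes whose levels followed CA12 most closely over the 9 libraries, out of 10134 other protein-coding genes whose mean level reached 5 CPM, were SLC27A2, SLC1A1 and ETV1. Pearson's r of log2 CPM was 0.995, 0.994 and 0.987, as a description in which all points share the libraries and the sorafenib group sets the range. SLC27A2 encodes a very long-chain acyl-CoA synthetase. It stood at 9.84, 5.85 and 6.04 CPM in untreated 1 to 3, at 5.83 to 6.59 CPM in oxaliplatin and at 19.3 to 20.6 CPM in sorafenib.
SLC1A1, a glutamate transporter gene, had 49.1, 33.3 and 36.6 CPM in untreated 1 to 3, 33.7 to 41.5 CPM in oxaliplatin and 84.9 to 93.2 CPM in sorafenib. ETV1, an ETS transcription factor gene, had 21.5, 12.9 and 15.4 CPM in untreated 1 to 3, 14.6 to 17.3 CPM in oxaliplatin and 37.1 to 46.9 CPM in sorafenib. In all 3 genes untreated 1 was the highest library outside sorafenib, as it was for CA12, a likeness that picking them by correlation favours.
For CA2 the closest genes were the chloride-proton antiporter gene CLCN7 (r = 0.953), ZNF394 (0.863) and NEK8 (0.858). For CA5B they were the kinase gene PLK3 (0.935), TEAD3 (0.904) and CRTAP (0.885), and for CA11 they were TCEANC2 (0.923), TMEM68 (0.890) and TIGAR (0.885). TSN (0.903), SLC25A17 (0.886) and TCTE3 (0.883) were closest to CA13. These r are a description too, as the largest values of a search over 10134 genes (10135 for CA11) in only 9 libraries. No shared function was tested.

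**Figure D4:**
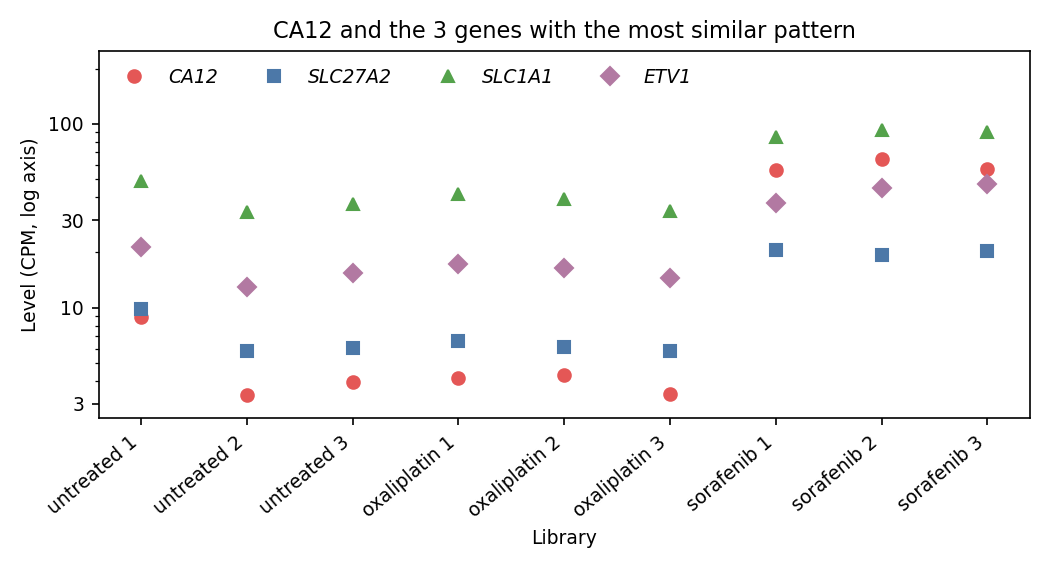
Levels in CPM (log axis) of CA12 and the 3 genes with the highest correlation to it, in each library. All 4 genes are highest in the 3 sorafenib libraries, and untreated 1 is the highest of the other 6 libraries for each of them.

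Of 11 tested genes of the SLC4 and SLC26 families, which include bicarbonate transporters, 1 rose and 0 fell in each drug group against untreated. The share of all genes called was 31.7% in oxaliplatin and 4.8% in sorafenib. These 11 genes had median log2 fold changes of 0.27 in oxaliplatin and 0.03 in sorafenib. None fell at an unadjusted p under 0.05 or by DESeq2. In sorafenib SLC4A7, the gene of a sodium-bicarbonate cotransporter, rose from 64.2, 60.6 and 74.4 to 112, 163 and 144 CPM. Its log2 fold change was 1.08 ± 0.16 (edgeR, adjusted p = 0.0076; from 4.81e-07 to 0.0407 over 17 alternatives), and it was lower in oxaliplatin than in sorafenib by a log2 fold change of -0.83 ± 0.15 (adjusted p = 0.0105).
In oxaliplatin SLC26A7, the gene of an anion exchanger of the kidney and stomach, rose from 3.75, 5.24 and 7.26 to 11, 10.8 and 9.65 CPM (log2 fold change 0.95 ± 0.23, adjusted p = 0.0129). After the GC and length correction its log2 fold change was 0.59 and its adjusted p 0.0724. Against sorafenib, where SLC26A7 ran from 3.43 to 4.25 CPM, it was higher by 1.46 ± 0.23 (adjusted p = 0.0056). SLC26A6, another anion exchanger gene, was also called in oxaliplatin against sorafenib, at 0.56 ± 0.14 (adjusted p = 0.0361). That call ended without any single library other than untreated 1 and oxaliplatin 2 (up to 0.128), with no filter on low counts (0.0612), with only the 2 groups fitted (0.059) and with the replicate block (0.0747).

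Of 8 tested sodium-proton exchangers and partners, 2 rose and 1 fell in oxaliplatin, beside 31.7% of all genes called, and 1 rose in sorafenib, beside 4.8%. SLC9A7, an exchanger gene of the trans-Golgi network, had 11.9, 8.94 and 6.14 CPM in untreated and rose in oxaliplatin to 26.7, 27.4 and 24.7 CPM (log2 fold change 1.55 ± 0.21, adjusted p = 0.00167). In sorafenib it stood at 19.5, 19.9 and 21.4 CPM (1.17 ± 0.21, adjusted p = 0.0176), a call that ended without untreated 2, sorafenib 2 or sorafenib 3 (adjusted p = 0.0712, 0.0639 and 0.077) or with only the 2 groups fitted (0.0508). The gene that fell in oxaliplatin was SLC9A3R2, which encodes a scaffold protein of these exchangers, from 50.5, 69.6 and 58.5 to 30.3, 39.9 and 42.9 CPM (-0.66 ± 0.18, adjusted p = 0.0219). Its call ended without untreated 2, untreated 3 or oxaliplatin 1 (adjusted p = 0.0821, 0.052 and 0.0816) and with the GC and length correction (-0.36, adjusted p = 0.114). SLC9A3, the brush-border exchanger gene, was called in oxaliplatin (4.80 ± 1.39) on 1.19, 26.0 and 1.34 CPM against at most 0.527 CPM in untreated. Its adjusted p of 0.0345 rose to 0.0732, 0.12 and 0.109 without untreated 1, 2 and 3 and to 0.0553 and 0.0549 without sorafenib 2 and 3. It was 0.106 with no filter on low counts, 0.0719 with only the 2 groups fitted and 0.0552 with the replicate block, and without oxaliplatin 2 the log2 fold change was 1.89. DESeq2 did not call SLC9A3 in oxaliplatin against untreated. It called SLC9A8 there, which edgeR did not (log2 fold change 0.42 ± 0.15, edgeR adjusted p = 0.0507). Of 6 monocarboxylate-proton carriers and partners 0 were called against untreated in either drug group by edgeR or DESeq2. At an unadjusted p under 0.05 there were 0 in oxaliplatin and 1, SLC16A7, in sorafenib.

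Hypoxia-induced genes, the wider set to which CA9 belongs, changed in both directions in oxaliplatin. Of 19 tested, 2 rose and 2 fell in oxaliplatin, beside 31.7% of all genes called, and 3 rose and 0 fell in sorafenib, beside 4.8%, with medians of -0.03 and 0.11. None fell in sorafenib at an unadjusted p under 0.05 or by DESeq2. NDRG1, a stress-responsive gene, rose in sorafenib from 204, 202 and 182 to 374, 317 and 358 CPM (log2 fold change 0.84 ± 0.11, adjusted p = 0.00568; from 2.98e-08 to 0.0347 over 17 alternatives). In oxaliplatin it was at 172 to 209 CPM (-0.03 ± 0.11, adjusted p = 0.883), below sorafenib by a log2 fold change of -0.86 ± 0.11 (adjusted p = 0.00202). PDK1 and BNIP3L were also called in sorafenib, at 0.77 ± 0.12 and 0.39 ± 0.09 (adjusted p = 0.0131 and 0.0436).
The PDK1 call ended without untreated 2, sorafenib 2 or sorafenib 3 (adjusted p = 0.0647, 0.0639 and 0.0613), with the replicate block (0.0525) and with the GC and length correction (0.0903, at a log2 fold change of 0.40). That of BNIP3L ended without any single library other than oxaliplatin 3 and sorafenib 1, reaching 0.162, and with no filter on low counts (0.0877), only the 2 groups fitted (0.083), the replicate block (0.126) and the GC and length correction (0.107). In oxaliplatin against sorafenib PDK1 was lower by a log2 fold change of -0.82 ± 0.13 (adjusted p = 0.00449). BNIP3L was at -0.48 ± 0.09 there (adjusted p = 0.0132), a call that ended without oxaliplatin 1, oxaliplatin 2 or sorafenib 3 (0.0612, 0.0518 and 0.0541) and with the replicate block (0.0522). PFKFB3, a regulator of glycolysis, rose in oxaliplatin from 129, 69.4 and 76.8 to 213, 222 and 271 CPM (log2 fold change 1.36 ± 0.22, adjusted p = 0.00306) and stood at 97.5 to 114 CPM in sorafenib (0.20 ± 0.21, adjusted p = 0.602). It was higher in oxaliplatin than in sorafenib (1.17 ± 0.22, adjusted p = 0.0107; 0.0513 without sorafenib 1). VEGFA, the gene of an angiogenic growth factor, rose in oxaliplatin from 105, 145 and 132 to 195, 187 and 245 CPM (0.72 ± 0.15, adjusted p = 0.00674). With the GC and length correction it was at 0.35 and no longer called (adjusted p = 0.118).
The genes that fell in oxaliplatin were PGK1 and ANKRD37, the second named after its values were seen since its mean was under 1 CPM. PGK1, a glycolytic enzyme gene, fell from 713, 712 and 721 to 574, 612 and 546 CPM (-0.31 ± 0.09, adjusted p = 0.0266). Its call ended without untreated 2, untreated 3, oxaliplatin 1 or oxaliplatin 3 (adjusted p = 0.0727, 0.0754, 0.0893 and 0.0629), by library size only (-0.19, adjusted p = 0.121) and with the replicate block (0.0776). ANKRD37 fell from a mean of 0.836 to 0.336 CPM (-1.30 ± 0.44, adjusted p = 0.0455). Its call ended without any single library other than sorafenib 2 (up to 0.139), with DESeq2 (0.075), by library size only (0.0621), with no filter on low counts (0.0853) and with the replicate block (0.0617).

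Of 9 bicarbonate-using carboxylases and urea cycle genes, 2 rose in oxaliplatin, beside 31.7% of all genes called, and 0 changed in sorafenib, beside 4.8%. In sorafenib 2 had an unadjusted p under 0.05, PC, which was lower (log2 fold change -0.70 ± 0.20), and ACACA, which was higher. DESeq2 called both. CPS1, the mitochondrial enzyme that fixes ammonia with bicarbonate, rose in oxaliplatin from 36.8, 28.2 and 32.6 to 74.1, 76.7 and 63.0 CPM (log2 fold change 1.13 ± 0.15, adjusted p = 0.00168; 0.68 with the GC and length correction). It was at 31.3, 42.3 and 39.3 CPM in sorafenib (0.21 ± 0.15, adjusted p = 0.414), below oxaliplatin (adjusted p = 0.00606). ACACA, the acetyl-CoA carboxylase gene, rose in oxaliplatin by 1.22 ± 0.29 (adjusted p = 0.014; 0.81 with the GC and length correction) and was at 1.02 ± 0.29 in sorafenib (adjusted p = 0.0751), a difference between the drugs of 0.21 ± 0.29 (adjusted p = 0.683). PCCB, a propionyl-CoA carboxylase subunit gene, was lower in oxaliplatin than in sorafenib (-0.53 ± 0.12, adjusted p = 0.0262), a call that ended without oxaliplatin 1, oxaliplatin 2 or any sorafenib library (up to 0.106). Over the 5 lists, 10 of 53 tested genes were called in oxaliplatin and 5 of 53 in sorafenib, beside the shares of 31.7% and 4.8% of all genes.

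**Figure D5:**
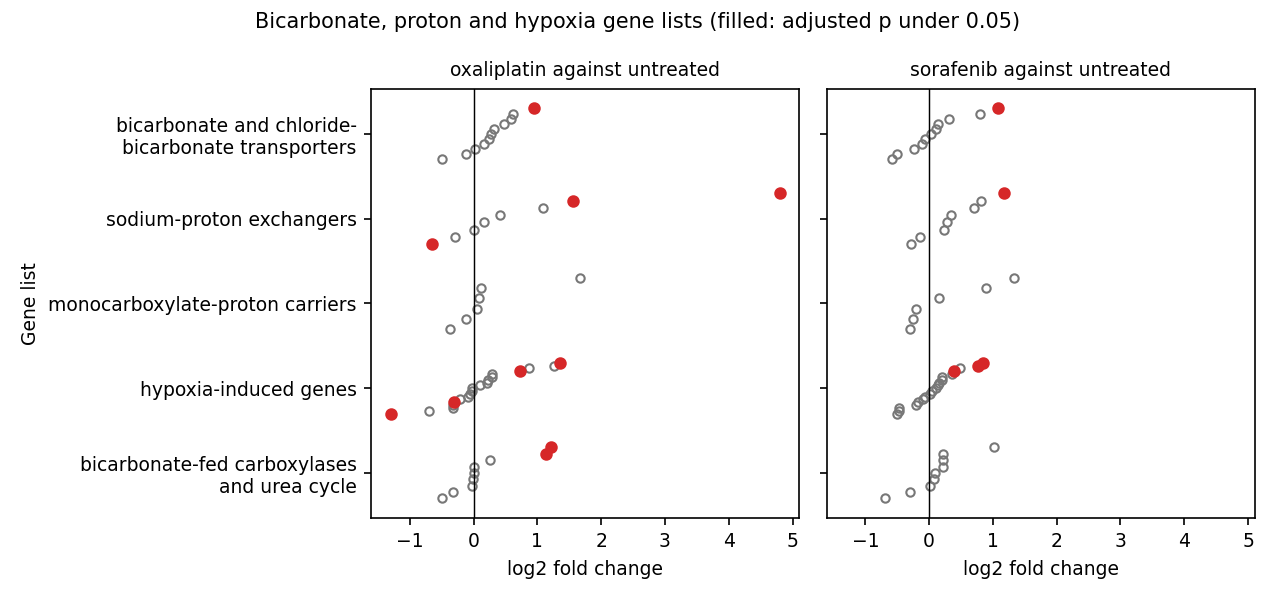
Fitted log2 fold changes of the tested genes of 5 lists, for each drug group against untreated. Filled points have an adjusted p under 0.05, open points do not. The far right point among the sodium-proton exchangers in oxaliplatin is SLC9A3 at 4.80, with a standard error of 1.39.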

How the data were processed

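Per the submitters' processing notes, the authors counted reads per gene with featureCounts on GRCh38 and named DESeq2 for their comparison. The deposited values are raw counts for 60683 genes in 9 libraries. The aligner, annotation release, strand setting and tool versions are not given in the sources used here.

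Counts were analysed in R 4.3.3 with edgeR 4.0.16: filterByExpr kept 16159 genes, each tested, TMM factors ran from 0.944 to 1.05, and a quasi-likelihood fit (robust, all 9 libraries, group as the only factor) gave 3 two-sided contrasts, with Benjamini-Hochberg adjustment over all tested genes and a threshold of 0.05. A standard error is the absolute log2 fold change over the square root of F. CPM use TMM-scaled totals. RPKM divide CPM by exon length. All members and gene lists were chosen with earlier results of these data known. Beyond the members and the other family genes, the text names from each list and comparison up to 4 called genes whose mean reached 1 CPM, by smallest adjusted p, and the 3 genes most correlated with each member. Neighbours of CA12, and single genes behind small counts, were added after its values were seen.

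Libraries of a group differed by more than sampling noise (chi-square per degree of freedom 16.9 to 36.3). Alternatives were DESeq2 1.42.0, other scaling, filters, fits of 2 groups, a replicate block, each library left out and, added after the data were seen, a GC and length correction (loess, span 0.5). On simulated counts for sorafenib against untreated, over 15849 genes, 5, 23, 42 and 45 of 50 genes changed 1.5, 2, 3 and 4-fold were called, with 7 of 122 calls false. The changed genes all had a mean above 1 CPM and the other genes were left unchanged, so these rates do not cover genes at lower levels. Some marker genes are not reported here.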

Additional observations from a re-analysis of the deposited data

How the results depend on the processing

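Of the fold changes of the 5 tested members under 17 alternatives, 251 stayed within about the standard error of the fitted value and 4 moved further. With the GC and length correction, which was chosen after seeing the data, oxaliplatin against untreated gave -0.30 for CA5B and -0.35 for CA13. Leaving out 1 library at a time, CA12 ran from -0.68 to 0.12 in oxaliplatin and from 3.21 to 4.01 in sorafenib against untreated, the upper ends being without untreated 1. CA12 in oxaliplatin against sorafenib stayed between -3.95 and -3.79 over all 17. The cause was not tested for any change here.

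The number of genes called moved more. For sorafenib against untreated, 775 genes became 1796 with DESeq2, 311 with only the 2 groups fitted and 1231 with the GC and length correction. With 1 library left out it ran from 113 (without sorafenib 3) to 1745 (without sorafenib 1). The same range was 2913 (without oxaliplatin 1) to 5403 (without untreated 1) for oxaliplatin against untreated, and 572 (without oxaliplatin 1) to 1949 (without untreated 1) for oxaliplatin against sorafenib. Pathway calls in sorafenib against untreated were 8 with DESeq2, 3 with only the 2 groups fitted and 2 to 7 with 1 library left out. In oxaliplatin against sorafenib they were 6 to 11.

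Replicate numbers did not pair the libraries: the correlation of same-numbered deviations was -0.127 to 0.0534. With a replicate block, 184 genes were called for sorafenib against untreated, 3 of them in the pathway lists, and 809 for oxaliplatin against sorafenib, and CA3 in sorafenib against untreated was 0.02.

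Scaling shifted the split of higher and lower calls. Against 2619 higher and 2504 lower, oxaliplatin against untreated had 3394 and 1797 by library size only and 1882 and 3211 with the GC and length correction. Against 838 and 819, oxaliplatin against sorafenib had 1072 and 600, and 995 and 1394. Sorafenib against untreated had 519 and 712 with the correction, against 456 and 319. Signs changed for uncalled relatives. CA5BP1 in oxaliplatin against sorafenib was 0.02 by library size only, and the correction gave it 0.05 there, 0.14 in oxaliplatin against untreated and 0.08 in sorafenib against untreated. With 1 library left out, CA5BP1 ran from -0.19 to 0.04 in sorafenib against untreated and from -0.15 to 0.07 in oxaliplatin against sorafenib. CA3 in sorafenib and CA14 in oxaliplatin against untreated ran from -0.40 to 1.02 and from -0.49 to 0.27. Depth limits CA9, CA8 and CA11, at 53 reads or fewer per library.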
